A study of Oryza sativa with 16 samples.

Results

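The response of Swarna panicles to reproductive-stage drought stress (RDS) was described from 7 of the 16 panicle libraries of the study, 4 from stressed plants and 3 from well-watered controls. Swarna is a drought-susceptible South Asian indica variety and the recurrent parent of the tolerant introgression line DTY-IL, which carries N22 segments in the Swarna background. All plants grew in greenhouse pots, with a single plant kept per pot. Stress began at stage R2, pots were held at 75% of field capacity and then at 50% for the last 3 days, and whole panicles were taken at stage R3 on day 12 of RDS. Control plants stayed well-watered, and the methods describe the replicates as independent biological ones. The pots stood in randomized blocks, which the fit leaves out because the count columns carry no pot numbers. A whole panicle mixes spikelets, anthers, pistils and branches, so fewer cells of a type and less RNA per cell cannot be told apart. The hour of harvest is not given in the sources used here.

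The 7 libraries held between 24677520 and 31080042 estimated counts, and values below are counts scaled to the size of each library (CPM). The library Swarna control 3 was left out of the groups. Its log2 CPM correlated at 0.80 with those of the other controls and at 0.82 to 0.85 with those of the RDS libraries. The other controls correlated with each other at 0.98 to 0.99. Swarna control 3 held at least 10 counts for 20496 genes, against 25047 to 25182 in the other controls. With it included, 25 of 113 called named genes lost their call. Correlations were 0.97 within the RDS group and 0.89 to 0.92 between the groups. Of 55801 genes in the table, 33698 had at least 10 counts in total and were tested with edgeR's quasi-likelihood test. A gene counted as differentially expressed (DEG) when its Benjamini-Hochberg adjusted p was at most 0.05 and its log2 fold change was 1 or more in either direction. In Swarna 9925 genes (29.5% of those tested) were DEGs, 3996 upregulated (11.9%) and 5929 downregulated (17.6%), and the median log2 fold change of all genes was 0.0046. By the adjusted p alone, 44.3% of genes passed, 21.6% with a higher and 22.7% with a lower level under RDS.

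Water deficit in plants raises the hormone abscisic acid (ABA). ABA bound to its receptors blocks the clade A protein phosphatases (PP2C), which frees SnRK2 kinases to phosphorylate bZIP transcription factors, and these switch on protective proteins such as dehydrins and late embryogenesis abundant (LEA) proteins. In rice the panicle is most sensitive to drought around meiosis and heading, when pollen formation depends on the tapetum, the nurse layer of the anther, and on imported sugar. The gene lists below follow these roles. They held 315 loci whose gene name passed a check against RefSeq symbols or came from the paper, and 311 of them were tested, since DREB1F, PIP2;8, LAX1 and FZP had too few counts. Of the 311, 59 rose and 106 fell (53.1%, against the 29.5% of all genes). The groups did not overlap for 228 of the 311 (73.3%, against 52.2% of all genes tested), including every called member except DREB1B and LOC_Os01g67030. The lists were chosen with earlier results of these data known. Their higher shares therefore describe the lists and do not test whether such genes respond more than others.

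**Figure D1:**
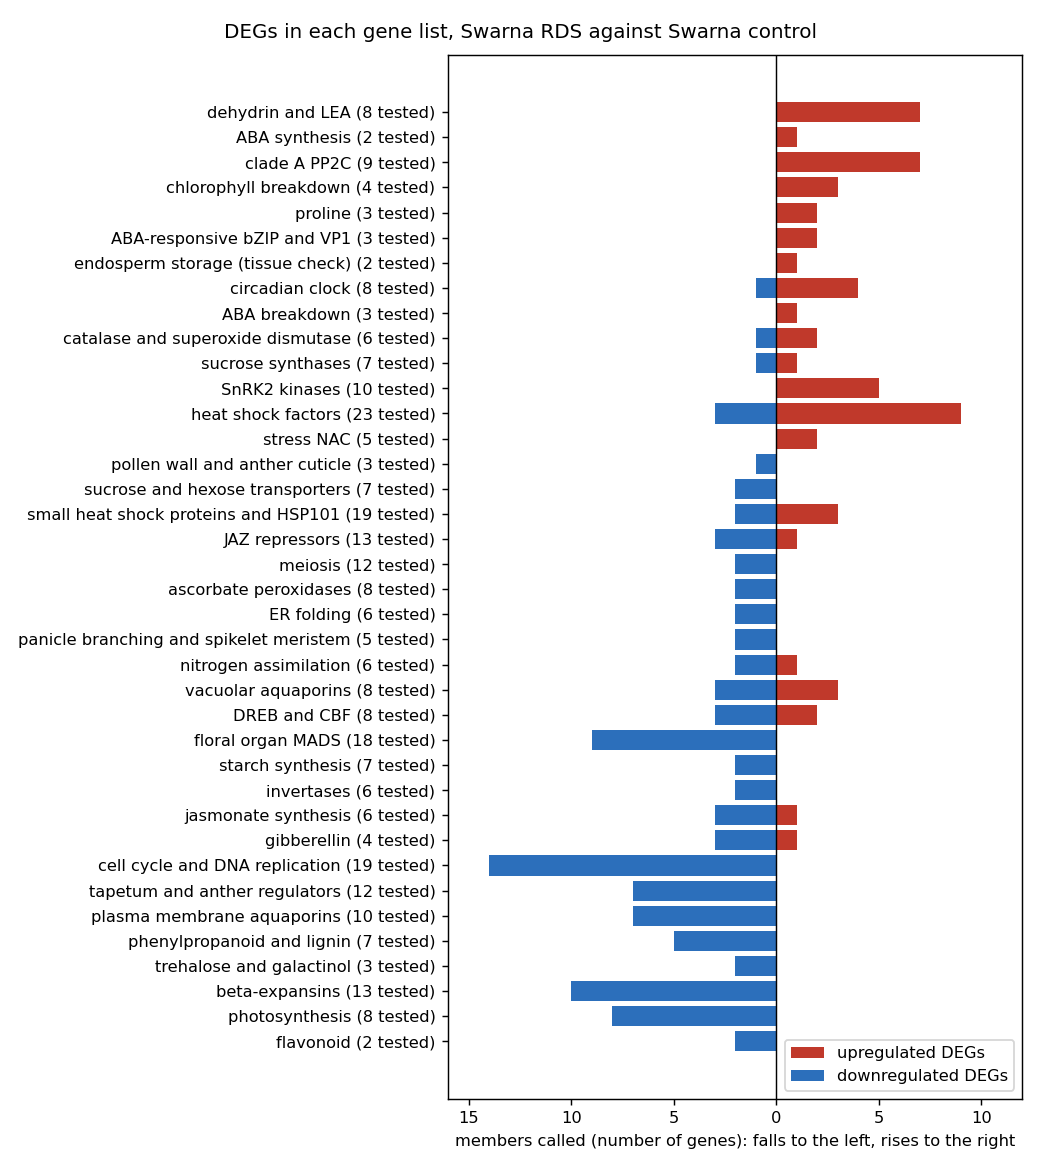
Number of members of each gene list that were upregulated (red, to the right) or downregulated (blue, to the left) in Swarna panicles under RDS, with lists ordered by their median log2 fold change and the number tested in brackets. Dehydrins and LEA proteins (7 of 8 up) stand at the top, and photosynthesis (8 of 8 down) and flavonoid genes (2 of 2 down) at the bottom.

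Dehydrin and LEA genes rose under RDS. Of 8 tested, 7 were upregulated and none was downregulated, with a median log2 fold change of 7.66. RAB16A (LOC_Os11g26790; the digits after Os name the chromosome), a dehydrin that binds water and shields proteins and membranes, stood at 1.65, 1.56 and 1.11 CPM in the controls and at 2951, 978, 1834 and 1902 CPM under RDS. Every RDS library was far above every control. The log2 fold change of RAB16A was 10.38 ± 0.88 (SE; edgeR adjusted p = 2.53e-06). Its neighbours RAB16B (LOC_Os11g26780) and RAB16C (LOC_Os11g26760) rose from means of 0.9502 and 0.340 CPM to 669 and 138 CPM. RAB16D (LOC_Os11g26750) rose from 0.0941 to 120 CPM. These genes are similar in sequence and lie in a row, so the apportioning of reads among them is uncertain. Leaving out control 2 moved the RAB16C log2 fold change from 8.63 to 9.69. LEA3-1 (LOC_Os05g46480), a LEA protein of another family, measured 7.54, 6.24 and 4.96 CPM in the controls and 637, 463, 746 and 738 CPM under RDS, a log2 fold change of 6.69 ± 0.63 (edgeR adjusted p = 5.10e-06). RDS library 2 was the lowest of the 4 for RAB16A to RAB16D and for LEA3-1. LIP9, another dehydrin, was already abundant in the controls and rose from a mean of 409 to 957 CPM. RAB25 was the member not called, at 1.57 on the log2 scale with an adjusted p of 0.0747 in edgeR.

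The ABA pathway upstream of these proteins moved at several steps. NCED3 (LOC_Os03g44380), an epoxycarotenoid dioxygenase of the committed step of ABA synthesis, stood at 4.32, 3.29 and 2.997 CPM in the controls and at 165, 127, 147 and 106 CPM under RDS. Its log2 fold change was 5.26 ± 0.53 (edgeR adjusted p = 8.18e-06), and the groups were well apart. ZEP, the zeaxanthin epoxidase of an earlier step, was not called, at 0.17 ± 0.31. Among the ABA hydroxylases that break the hormone down, ABA8OX1 (LOC_Os02g47470) rose from 5.34, 5.72 and 19.1 CPM to between 39.9 and 64.7 CPM, at 2.32 ± 0.48 (edgeR adjusted p = 0.00137), or 3.09 without control 4. ABA8OX2 and ABA8OX3 were not called, at 0.96 and −0.04.

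Phosphatases and kinases of ABA signalling rose in part. Of 9 clade A PP2C genes, 7 rose and none fell (median log2 fold change 2.68). PP2C51 (LOC_Os05g49730) stood at 2.56, 2.08 and 1.78 CPM in the controls and at 60.3, 72.7, 81.8 and 59.3 CPM under RDS, at 4.997 ± 0.39 (edgeR adjusted p = 1.57e-06). PP2C68, PP2C30 and PP2C08 rose by 3.98, 3.89 and 2.80 on the log2 scale, and PP2C49 and PP2C53 were not called. Of the 10 SnRK2 kinases, named SAPK in rice, 5 rose and none fell. SAPK9 (LOC_Os12g39630) led them, with 6.81, 10.6 and 6.89 CPM in the controls and 235, 191, 284 and 195 CPM under RDS, at 4.80 ± 0.30 (edgeR adjusted p = 4.01e-07). SAPK10, SAPK6, SAPK1 and SAPK4 rose by 3.69, 2.02, 1.66 and 1.31 on the same scale, while SAPK2, SAPK3, SAPK5, SAPK7 and SAPK8 lay between −0.74 and 0.29 and were not called. The bZIP factors BZIP23 (33.1 to 156 CPM, log2 fold change 2.23) and TRAB1 (20.9 to 47.0 CPM, 1.17), activators of ABA-responsive promoters, rose, and VP1, a seed maturation factor, was not called at 0.38.

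**Figure D2:**
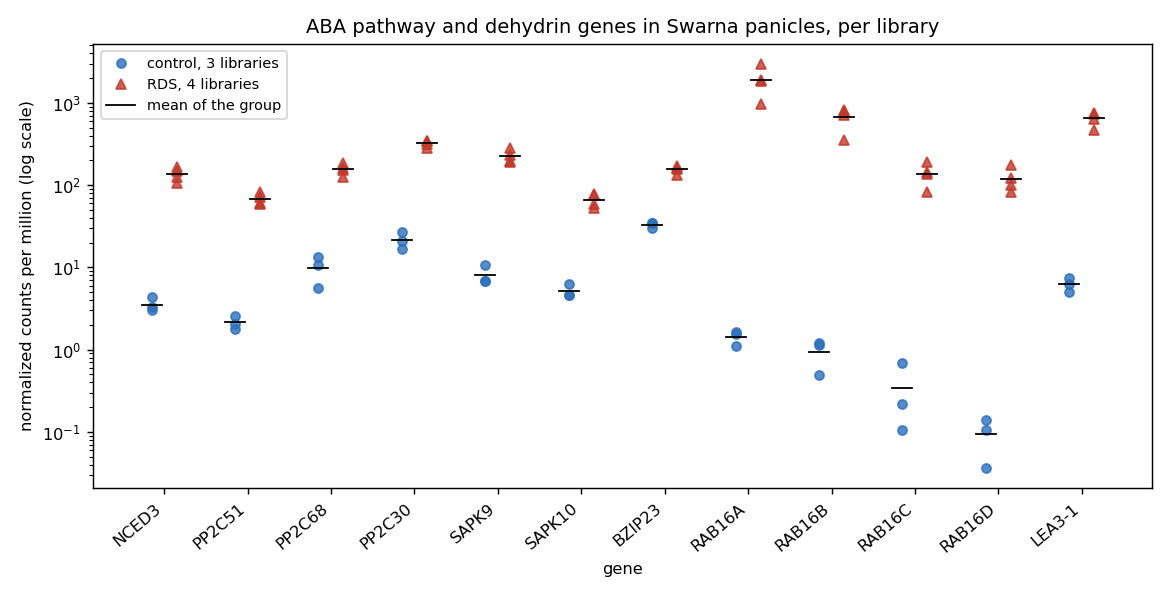
CPM on a log axis for genes of ABA synthesis, signalling and dehydrins, with blue circles for the 3 Swarna control libraries, red triangles for the 4 RDS libraries and black lines for group means. For each gene drawn, every RDS library is above every control library, from BZIP23 (33.1 to 156 CPM) to RAB16A (1.44 to 1916 CPM).

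Other stress regulators split in direction. SNAC2 (LOC_Os01g66120), a NAC factor of drought and cold responses, stood at 69.2, 68.3 and 54.1 CPM in the controls and at 218, 385, 494 and 301 CPM under RDS, at 2.45 ± 0.48 (edgeR adjusted p = 0.00106). NAC4 rose by 1.61 ± 0.58 (edgeR adjusted p = 0.0353), a call that was lost without control 1, control 4, RDS 1, RDS 2 or RDS 3, at 1.22 to 1.57. NAC5, NAC3 and ONAC045 were not called. Among 8 DREB factors, activators of dehydration and cold genes, 2 rose and 3 fell. DREB2A rose from between 12.6 and 13.9 CPM to between 32.8 and 44.0 CPM, and DREB1C from a mean of 0.747 to 5.45 CPM. DREB1B fell from 0.293, 0.693 and 3.03 CPM to between 0 and 0.306 CPM, groups that overlap. Its log2 fold change of −2.95 became −1.62 and lost its call without control 4. The list then held 1 fall in place of 3, so DREB1B's was not the only call lost there. DREB1E and DREB1H held 78 and 27 counts over the controls and 1 and 3 over the RDS libraries, ratios of 98.1 (95% counting interval 17.1 to 3923) and 11.3 (3.48 to 58.3). No DREB fall remained when low genes were filtered by edgeR's own rule, which does not test these sparse genes.

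Heat shock factors, which switch on chaperones, moved in both directions. Of 23 factors tested 9 rose and 3 fell, and of 19 small heat shock proteins and HSP101 3 rose and 2 fell, a called share below the 29.5% of all genes, with a median log2 fold change of 0.06. HSFC1B (LOC_Os01g53220), a class C factor, stood at 0.402, 0.555 and 0.178 CPM in the controls and at 153, 66.2, 133 and 97.6 CPM under RDS, at 8.19 ± 0.55 (edgeR adjusted p = 6.43e-07). HSFA6B, HSFC2B and HSFA3 rose by 4.52, 3.53 and 2.88 on the log2 scale. HSFA2D (LOC_Os03g06630) went the other way, from 28.7, 43.4 and 25.9 CPM to between 3.25 and 3.77 CPM, at −3.24 ± 0.42 (edgeR adjusted p = 4.41e-05). Of the chaperones, HSP16.9A rose (7.18 to 50.7 CPM) and HSP18.8 fell (17.5 to 3.04 CPM). HSP23.2 rose from a mean of 1.51 CPM to 6.69, 23.9, 4.47 and 5.09 CPM, a call lost without control 2, control 4 or RDS 2 (log2 fold change 2.46, 2.43 and 1.89 against 2.73) and at 3.37 without control 1. HSP21.9 rose from a mean of 0.0475 to 1.17 CPM (log2 fold change 4.50, or 3.73 without RDS 2). Without RDS 2, 5 chaperones fell instead of 2. Of 6 genes of protein folding in the endoplasmic reticulum 2 fell and none rose past the fold threshold. The called share was near the 29.5% of all genes. Their summed level was 1604 to 1799 CPM in the controls, 1769 CPM in RDS 2 and 1170 to 1223 CPM in the other RDS libraries. PDIL1-1, a disulfide isomerase, and BZIP39 passed the adjusted p upward at 0.84 and 0.76 on the log2 scale, CRT1 passed it downward at −0.90, and BZIP50 stood at 0.0009. BIP1 and PDIL2-3, a chaperone and a disulfide isomerase, fell, at −1.03 and −1.12 on the log2 scale. Both calls ended without RDS 1 or RDS 3, and BIP1's also without RDS 4, at −0.996 to −0.882, under the fold threshold.

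Water channels of the plasma membrane (PIP aquaporins) fell. Of 10 tested, 7 were downregulated and none upregulated, with a median log2 fold change of −1.88. PIP2;7 (LOC_Os09g36930) stood at 200, 181 and 176 CPM in the controls and at 16.8, 9.73, 25.9 and 25.8 CPM under RDS, at −3.25 ± 0.43 (edgeR adjusted p = 5.56e-05). PIP2;5 fell from a mean of 4.01 to 0.427 CPM and PIP2;4 from 15.1 to 2.74 CPM. PIP2;3 held 394 counts over the controls and 3 over the RDS libraries, a ratio of 165 (95% counting interval 56.1 to 804), and its fitted log2 fold change of −7.16 became −8.11 without RDS 3. PIP1;2, PIP1;3 and PIP2;6 were not called. Vacuolar aquaporins (TIP) were divided, with 3 of 8 up and 3 down. TIP2;1, among the rises, held 2 counts over the controls and 25 over the RDS libraries, a ratio of 9.94 (95% counting interval 2.48 to 86.6). TIP4;1 (LOC_Os05g14240) rose from 33.0, 34.4 and 33.6 CPM to 269, 247, 368 and 301 CPM, while TIP4;2 (LOC_Os01g13130) fell from 163, 140 and 116 CPM to 34.5, 26.0, 17.2 and 50.2 CPM. Their log2 fold changes were 3.14 ± 0.36 and −2.13 ± 0.30 (edgeR adjusted p = 2.00e-05 and 8.30e-05).

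Of the genes that unload and store sugar in sink organs, a few fell and SUS4 rose. Among all genes tested, 11.9% rose and 17.6% fell. CIN2 (LOC_Os04g33740), a cell wall invertase that splits sucrose as it leaves the phloem and is known for grain filling, stood at 109, 84.5 and 73.1 CPM in the controls and at 1.42, 0.518, 0.229 and 1.99 CPM under RDS. Its log2 fold change was −6.42 ± 0.55 (edgeR adjusted p = 2.56e-06). CIN3 fell from a mean of 55.6 to 5.79 CPM, whereas CIN1, CIN4, CIN5 and CIN6 were not called, so 2 of 6 invertases fell. Sucrose synthases, which split sucrose inside the cell, showed 1 rise and 1 fall among 7. SUS4 (LOC_Os03g22120) rose from 68.5, 79.2 and 77.1 CPM to 836, 822, 749 and 796 CPM (3.42 ± 0.24, edgeR adjusted p = 8.24e-07), and SUS3 fell from 32.0 to 4.28 CPM. The count of falling sucrose synthases was 2 without control 4 or without RDS 1.

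Of 7 sucrose and hexose transporters, the efflux carrier SWEET11 fell from 83.1, 87.6 and 62.1 CPM to 29.0, 7.92, 6.77 and 14.2 CPM, and SUT5 from a mean of 9.16 to 2.61 CPM. The median log2 fold change of the transporters was 0.34. Their summed level was 339.3 to 422.5 CPM in the controls and 399.6 to 525.4 CPM under RDS. The SWEET11 log2 fold change of −2.42 was −3.01 without RDS 1. In starch synthesis 2 of 7 genes fell. GBSSI (LOC_Os06g04200), the granule-bound synthase of the Waxy locus that makes amylose, stood at 215, 180 and 210 CPM in the controls and at 5.09, 6.44, 1.11 and 47.0 CPM under RDS. RDS library 4 was well above the others, and without it the log2 fold change went from −3.76 to −5.58 and the list's falls from 2 to 4. SSIIB fell from 54.0 to 20.7 CPM. The trehalose phosphate phosphatases TPP1 and TPP2, which act on a sugar signal, fell, at −2.56 and −2.48 on the log2 scale, with TPP1 at −4.07 without RDS 1. TPP7 passed the adjusted p (0.0152, edgeR) but changed less than 2-fold. P5CS1 and P5CS2, enzymes of the synthesis of the osmolyte proline, rose from 95.7 to 227 CPM and from 91.1 to 307 CPM.

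All photosynthesis genes kept in the list fell. Of 37 loci written for it, 8 passed the name check and the rest were dropped. All 8 were downregulated, with a median log2 fold change of −2.79. Their summed level was at least 14260 CPM in each control and 1490 to 2750 CPM under RDS. CAB2R (LOC_Os01g41710), a light-harvesting chlorophyll protein, stood at 7197, 6955 and 4821 CPM in the controls and at 513, 158, 305 and 628 CPM under RDS. The groups lay far apart, at −3.98 ± 0.68 (edgeR adjusted p = 3.86e-04). CAB1R fell from a mean of 6839 to 877 CPM, RCABP89 from 2293 to 123 CPM and the fructose bisphosphatase gene FBPase from 142 to 16.8 CPM. The others were PSAH, PETE, RCA and FNR1, of photosystem I, electron transfer and Rubisco activation, at −1.35 to −2.61. Of 4 genes of chlorophyll breakdown, 3 rose. NYC1 (LOC_Os01g12710), a chlorophyll b reductase, rose from 47.9, 53.6 and 46.0 CPM to 193, 236, 256 and 210 CPM, SGR from 7.75 to 30.2 CPM and RCCR1 from 9.80 to 25.5 CPM. NOL was not called. In nitrogen assimilation, GS2, the chloroplast glutamine synthetase, fell from 443 to 89.1 CPM and the cytosolic GS1;1 from 612 to 235 CPM. GOGAT2 (LOC_Os05g48200), a glutamate synthase, rose from 12.2, 14.5 and 15.2 CPM to 273, 198, 164 and 339 CPM (4.12 ± 0.36, edgeR adjusted p = 3.14e-06).

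The entry into phenolic metabolism fell too. Of 7 phenylpropanoid and lignin genes, 5 fell and none rose (median −2.05). 4CL3 (LOC_Os02g08100), a coumarate ligase, fell from 1293, 1064 and 1074 CPM to 188, 204, 113 and 112 CPM, and 4CL2 from 5.48 to 0.762 CPM. CAD2, an alcohol dehydrogenase of monolignol synthesis, fell from 243 to 57.1 CPM. CHS1 (LOC_Os11g32650), the chalcone synthase that opens the flavonoid branch, stood at 1043, 763 and 789 CPM in the controls and at 61.4, 13.5, 5.32 and 14.1 CPM under RDS, at −5.20 ± 0.83 (edgeR adjusted p = 2.17e-04). RDS library 1 was the highest of the 4, and without it the value was −6.30. CHI, the next enzyme, fell from 163 to 28.7 CPM. Antioxidant enzymes moved in part. Of 6 catalase and superoxide dismutase genes, 2 rose, 1 fell and 3 were not called. Among 8 ascorbate peroxidases 2 fell and 6 were not called, a called share below the 29.5% of all genes. SODCC2, a superoxide dismutase, rose from 153 to 553 CPM and CATB, a catalase, from 216 to 458 CPM, whereas SODCC1, APX2 and APX5 fell, with log2 fold changes of −1.05, −1.29 and −1.84. CATB's log2 fold change of 1.08 was 0.999, just under the threshold, without control 4, and the SODCC1 call ended without control 2, RDS 1 or RDS 4 (−0.987 to −0.860).

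**Figure D3:**
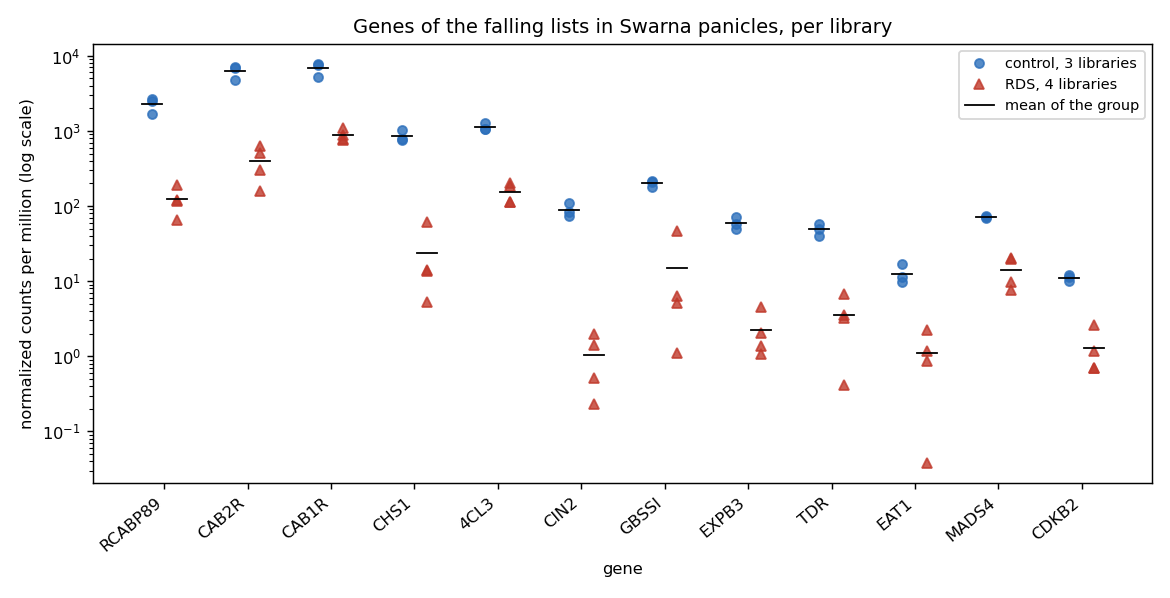
CPM on a log axis for genes of photosynthesis, flavonoid and lignin synthesis, sugar unloading, starch, cell wall loosening, tapetum, floral identity and cell division, with blue circles for the 3 Swarna control libraries, red triangles for the 4 RDS libraries and black lines for group means. Every RDS library is below every control library for each gene drawn, and the RDS spread is widest for EAT1 and GBSSI (1.11 to 47.0 CPM for GBSSI).

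Genes of floral organs and the anther fell in part. Of 18 floral MADS factors, which specify organ identity, 9 fell and none rose (median −0.97). MADS4 (LOC_Os05g34940), of the class that specifies lodicules and stamens, stood at 68.5, 74.7 and 71.4 CPM in the controls and at 19.7, 9.77, 7.65 and 20.1 CPM under RDS, at −2.32 ± 0.29 (edgeR adjusted p = 3.32e-05). MADS2 of the same class fell from 301 to 71.3 CPM, the carpel gene DL from 32.0 to 10.6 CPM and MADS58 from 35.5 to 13.4 CPM. The 9 falls became 5 without RDS 2 and 0 when Swarna control 3 was included. Of 12 regulators of the tapetum and anther, 7 fell and none rose (median −1.78, highest value 1.83). By DESeq2, or with the 7 Swarna libraries alone, 1 of them was called up. TDR (LOC_Os02g02820), a bHLH factor required for tapetum degeneration, stood at 56.8, 40.4 and 49.9 CPM in the controls and at 3.23, 3.55, 0.421 and 6.84 CPM under RDS, at −3.80 ± 0.82 (edgeR adjusted p = 0.00196). RDS library 3 was the lowest.

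EAT1, a bHLH factor downstream of TDR, fell from 12.6 to 1.09 CPM, and AP25, an aspartic protease that EAT1 activates, from 8.56 to 0.383 CPM. TDL1A, a ligand that limits the number of sporogenous cells, fell from 3.71 to 0.359 CPM. The log2 fold change of EAT1 went from −3.53 to −4.12 without RDS 2 and that of AP25 from −4.46 to −5.27 without RDS 1. UDT1, PTC1, AP37, CP1 and RTS were not called. C6, an anther lipid transfer protein, fell from 13.8, 5.20 and 16.2 CPM to between 0 and 0.592 CPM, at −5.45 ± 1.33 (edgeR adjusted p = 0.00431), or −6.19 without RDS 2. CYP703A3 and C4 of the same list, pollen wall and anther cuticle, were not called. Of 14 loci written for this list only C6, CYP703A3 and C4 passed the name check. The median of these 3 was 0.50, with a highest value of 2.51. With the 7 Swarna libraries alone C4 was called up, at 2.518 (edgeR adjusted p = 0.002672). In meiosis 2 of 12 genes fell, a share near the 17.6% of all genes, namely MEL1 (22.8 to 4.85 CPM), an argonaute of germ cells, and PAIR2 (4.49 to 1.96 CPM), needed for chromosome pairing. The storage glutelins GLUA1 and GLUA2, markers of endosperm, summed to 3.29 to 5.96 CPM in the controls and 8.65 to 9.58 CPM under RDS. GLUA1 was called, but not without control 2, RDS 1 or RDS 4 (0.96, 1.25 and 1.26 on the log2 scale against 1.37). GLUA2, at 0.92, was called without control 4 (1.08), which made 2 rises of 2. The part of a shift in developmental stage or tissue make-up in these values was not tested.

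Genes of cell growth and division fell. Beta-expansins, which loosen grass cell walls, fell for 10 of 13 members and rose for none (median −2.70). EXPB3 (LOC_Os10g40720) stood at 71.3, 57.1 and 48.7 CPM in the controls and at 4.54, 1.37, 1.07 and 2.07 CPM under RDS, at −4.70 ± 0.62 (edgeR adjusted p = 5.44e-05). EXPB15, EXPB7 and EXPB2 fell as well, at −5.11, −4.78 and −4.24 on the log2 scale. RDS library 1 was the highest for EXPB15, EXPB3 and EXPB2, whose values without it were −5.83, −5.29 and −5.17. Cell cycle and DNA replication genes fell for 14 of 19 members and rose for none (median −1.49). CDKB2 (LOC_Os08g40170), a mitotic kinase, stood at 11.2, 12.2 and 10.1 CPM in the controls and at 1.16, 0.703, 0.688 and 2.58 CPM under RDS, at −3.12 ± 0.45 (edgeR adjusted p = 9.95e-05). The mitotic cyclins CYCB2;2, CYCB2;1 and CYCB1;1 fell too, with log2 fold changes of −2.91, −2.79 and −2.76. RDS library 4 was the highest for CYCB2;1 and CYCB1;1, and without it both stood at −3.68. All of MCM2 to MCM7, the helicase of DNA replication, fell, at −2.35 to −1.46 on the log2 scale, and CDKA1, CDKA2, CDKB1, CYCD4;1 and PCNA were not called. With Swarna control 3 included, beta-expansin falls numbered 5 and cell cycle falls 5. OSH1, a homeobox gene that maintains meristems, fell from 123 to 47.3 CPM. APO2 held 28 counts over the controls and 1 under RDS, a ratio of 35.2 (95% counting interval 5.82 to 1440), while LOG, CKX2 and SPL14 were not called.

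Gibberellin and jasmonate genes moved in both directions. GA20OX2 (LOC_Os01g66100), the gibberellin oxidase of the semi-dwarf locus, fell from 5.96, 6.62 and 5.21 CPM to 0.327, 0.407, 0.344 and 0.278 CPM, at −4.11 ± 0.43 (edgeR adjusted p = 1.10e-05). The receptor GID1 rose from 31.1 to 81.8 CPM, while its partner F-box protein GID2 and the repressor SLR1 fell from 185 to 55.9 CPM and from 312 to 134 CPM. Of 6 genes listed under jasmonate synthesis, AOS1, AOS2 and JAR1 fell (−1.72, −1.96 and −2.66 on the log2 scale), and OPR1 rose from 2.07 to 16.8 CPM (3.01, or 2.42 without RDS 2). AOC and OPR7 passed the adjusted p downward but not the fold threshold. Of 13 JAZ repressors of the jasmonate pathway, JAZ4, JAZ9 and JAZ13 fell and JAZ11 rose (1.89, or 2.57 without control 2). The other 9 were not called, which put the called share near the 29.5% of all genes, and the list's median was −0.19.

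Of 8 circadian clock genes, 4 rose and 1 fell. LHY (LOC_Os08g06110), the morning-phased MYB factor, stood at 379, 339 and 344 CPM in the controls and at 30.9, 44.0, 44.1 and 59.7 CPM under RDS, at −2.99 ± 0.25 (edgeR adjusted p = 2.28e-06). PRR1 (LOC_Os02g40510), the rice counterpart of TOC1, rose from 15.4, 13.7 and 17.2 CPM to 175, 141, 162 and 141 CPM, at 3.33 ± 0.18 (edgeR adjusted p = 1.27e-07), with tight replicates in both groups. LUX rose from 1.22 to 33.9 CPM, GI from 518 to 1494 CPM and PRR95 from 120 to 536 CPM. PRR37, PRR73 and ELF3-1 were not called. With Swarna control 3 included, GI and PRR95 were not called (0.48 and 0.83 on the log2 scale). Photosynthesis genes, whose levels follow the day, moved in the same libraries, and the part of the hour of harvest in either result was not tested.

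**Figure D4:**
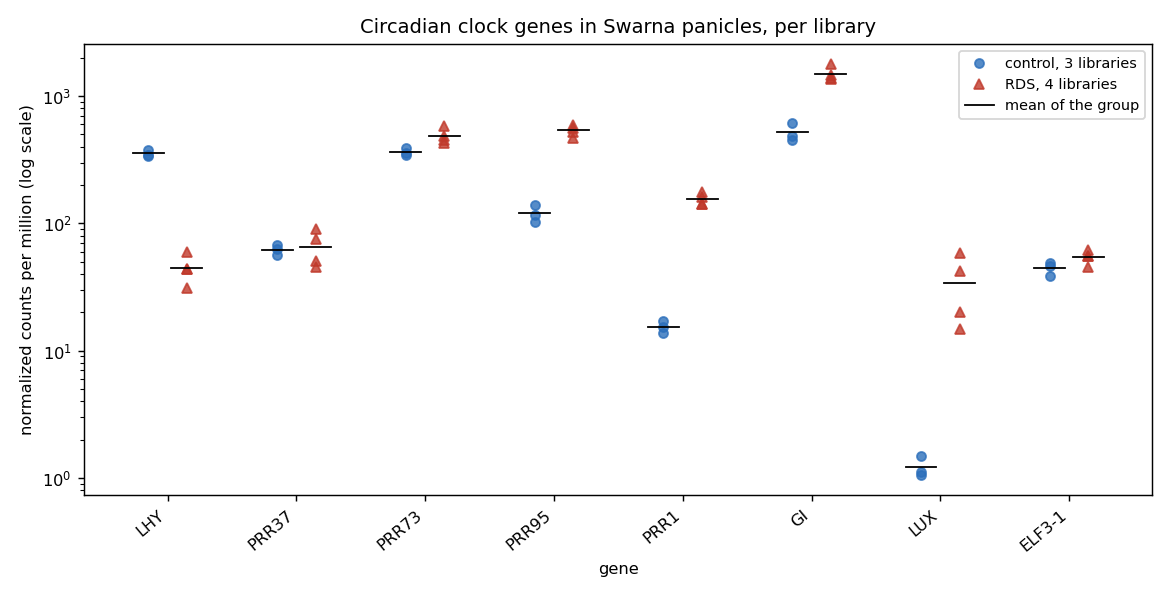
CPM on a log axis for 8 circadian clock genes, with blue circles for the 3 Swarna control libraries, red triangles for the 4 RDS libraries and black lines for group means. LHY is lower under RDS (354 to 44.7 CPM), PRR1, PRR95, GI and LUX are higher, and the groups overlap for PRR37 and ELF3-1.

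Among the loci named in the paper, SNAC2 is given above. LOC_Os03g03510, a CIPK-like kinase gene, measured 108, 148 and 130 CPM in the controls and 151, 229, 244 and 199 CPM under RDS, a difference of 0.68 on the log2 scale that passed the adjusted p (0.0292, edgeR) but not the fold threshold. LOC_Os01g67030, the auxin-responsive protein gene, held 9 counts over the controls and 1 over the RDS libraries, a ratio of 11.3 (95% counting interval 1.57 to 496), so its call rests on very few reads. The call was lost without control 1, control 2, RDS 2, RDS 3 or RDS 4 (fitted log2 fold change −3.03 to −2.43 against −3.01), and the value was −4.64 without RDS 1. LOC_Os07g22770, an AP2 domain gene, fell from 2.02 to 0.624 CPM, a call lost without control 1, control 2, RDS 1, RDS 3 or RDS 4 (−1.71 to −1.37 against −1.68). The peroxidase genes LOC_Os03g13200, LOC_Os07g01370 and LOC_Os07g48020 and the receptor kinase gene LOC_Os01g66820 were not called. LOC_Os07g01370, at 15.4 CPM in RDS 1 and 0.740 to 1.68 CPM in the other RDS libraries, was called down without RDS 1 (−2.20 on the log2 scale against −0.11; edgeR adjusted p = 0.0232).

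The largest changes lay mostly outside the lists. The 10 largest rises by fitted fold change among 6592 eligible DEGs had a control mean of at most 0.213 CPM and RDS means of 8.55 to 368 CPM. With no count in any control for 6 of them, their fitted fold changes are not given. LOC_Os01g46600 had no count in the 3 controls and 60.4, 34.7, 96.0 and 58.3 CPM under RDS, at least 1743-fold higher against a floor of 3 counts over the group. LOC_Os04g35490 likewise had none in the controls and 28.1, 9.36, 23.1 and 19.95 CPM under RDS, at least 565-fold higher. The 10 largest falls, PIP2;3 among them, went from means of 4.70 to 31.5 CPM to at most 0.161 CPM.

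The same treatment in DTY-IL, 4 stressed against 4 control libraries, gave 6660 DEGs (19.8%), 2515 up (7.46%) and 4145 down (12.3%). RAB16A changed by 6.76 on the log2 scale there, against 10.38 in Swarna, CIN2 by −3.38 against −6.42, and PIP2;7 by −0.67 against −3.25. For cell cycle genes the list had 1 rise and 1 fall in DTY-IL against 14 falls in Swarna. Some lists went the other way. Sucrose synthases had 5 falls in DTY-IL (median −2.13) against 1 in Swarna (median 0.85), and stress NAC factors 3 rises against 2. The difference itself, tested as a genotype by drought interaction, passed an adjusted p of 0.05 in edgeR for 20 of 33698 genes (0.0594%; 19 or 0.0564% with the fold threshold) and for 0 of the 311 list members. At an unadjusted p under 0.05 there were 4149 genes and 85 members, and DESeq2 called 795 genes and 27 members. Of the 20 genes, 18 changed more in Swarna. LOC_Os11g32580 and LOC_Os11g32610, with locus numbers near that of CHS1, were picked after their values were seen. LOC_Os11g32580 fell from 238 counts over the Swarna controls to 3 (ratio 99.8, 95% counting interval 33.7 to 487), and LOC_Os11g32610 from 188 to 2 (118, 32.3 to 983), while in DTY-IL their log2 fold changes were −1.29 and −1.13. The fitted Swarna values, −6.43 and −6.58, were −7.38 for LOC_Os11g32580 without RDS 3 and −8.97 for LOC_Os11g32610 without RDS 4. The edgeR interaction adjusted p was 0.00932 for LOC_Os11g32580 and 0.0173 for LOC_Os11g32610. The number of interaction genes was 2 without control 1, control 2 or RDS 3, 3 without control 4 and 11 without RDS 2.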

How the data were processed

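Whole-panicle RNA was sequenced on an Illumina HiSeq, paired-end. The authors trimmed reads with Trimmomatic and quantified them with salmon 0.7.2 on rice (RGAP 7, IRGSP-1.0) transcripts, and deposited estimated counts per gene as whole numbers, which were used without further change. The deposited DESeq2 result tables hold the authors' fold changes and p-values and were not used. Groups came from the column names, whose replicate numbers do not match the pot numbers in the labels; the p-values measure the spread between these plants.

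Swarna control 3 was left out, as the authors did. One edgeR 4.0.16 quasi-likelihood fit (R 4.3.3) covered the 4 groups of the other 15 libraries, with TMM normalization and at least 10 counts in total. The SE is the log2 fold change over the square root of the F statistic. Counting intervals are exact, at 95%, and cover counting error only. DESeq2 1.42.0, other size factors, filters and libraries were tried as alternatives.

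The members and lists were chosen with earlier results of these data known. Gene names are not in the count table: 481 locus and symbol pairs were written from general knowledge, and 308 were kept where RefSeq holds the symbol on that chromosome, within 1 Mb of the place that locus order gives. Lists of ABA receptors and pollen MADS factors kept no member. NADPH oxidases kept RBOHB, which was not called. Named genes were all members of lists of up to 6, otherwise up to 4 called members by absolute log2 fold change in the list's main direction plus the largest in the other, with a mean of at least 1 CPM in a group; the 10 largest rises and falls (mean of at least 50 normalized counts); and the paper's loci. A gene that the rule names is not reported here. Genes named beyond this rule were chosen after their values were seen.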

Additional observations from a re-analysis of the deposited data

Results flagged for a closer look

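Of 147 named genes, 16 had a Swarna RDS library set apart from the other 3 by Dixon's criterion (its gap to the nearest over the whole range), which chance gives in about 1 in 20 groups. RDS library 1 was high for TPP1 (2.36 CPM), CHS1 (61.4 CPM), EXPB15 (0.327 CPM), EXPB2 (1.82 CPM), LOC_Os03g13200 (9.81 CPM, the next 2.26 CPM), LOC_Os07g01370 (15.4 CPM, the next 1.68 CPM) and LOC_Os01g67030 (0.0363 CPM, the others at 0), and low for ZEP (90.1 CPM, the next 132 CPM). RDS library 2 was high for HSP23.2 (23.9 CPM), CRT1 (499 CPM, the next 283 CPM) and OAT (169 CPM, the next 123 CPM). RDS library 4 was high for GBSSI (47.0 CPM), CYCB2;1 (2.27 CPM), CYCB1;1 (2.74 CPM) and LOC_Os11g32610 (0.0795 CPM, the others at 0), and low for CKX2 (1.75 CPM, the next 3.75 CPM).

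The drought effect differed between Swarna and DTY-IL for 20 genes by edgeR's interaction test. For LOC_Os11g32580 the log2 fold change in Swarna minus that in DTY-IL was −5.15, and for LOC_Os11g32610 it was −5.44.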

How the results depend on the processing

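No paired analysis was possible because the count columns carry no pot numbers. The 9925 DEGs became 4778 (1755 up, 3023 down) when tested against the 2-fold threshold itself, and were 7022 to 10134 under the other tools, filters and library sets; leaving out 1 Swarna library gave 8445 to 9811. The 14918 genes by adjusted p alone became 9265 with all 16 libraries and 4778 against the fold threshold. The 165 called members became 108 against the fold threshold, and were 127 with all 16 libraries. The 20 interaction genes were 795 by DESeq2, 0 with all 16 libraries, 3 against the fold threshold and 2 to 19 with 1 Swarna library left out. Of 113 called named genes, 71 kept direction and call in every alternative; the cause of the changes was not tested. With all 16 libraries the calls of SNAC2, HSFA3, TIP4;2, CIN3, SUS3, SWEET11, SUT5, RCCR1, CAD2, MADS2, MADS4, MADS58, DL, EAT1, PAIR2, OSH1 and JAZ9 were among those lost, and falls numbered 4 of 12 tapetum and 3 of 7 phenylpropanoid genes. Among the alternatives run, signs turned only for genes not called as reported, of which ZEP became a fall with all 16 libraries (log2 fold change −2.362, edgeR adjusted p = 0.04997). There NAC3, CIN4, TPP7, FD-GOGAT, LOG, LOC_Os01g66820, PDIL1-1 and SODA also gained a call. Calls were gained as well by CRT1 without control 4 or RDS 2, CIN4 and OPR7 without control 4, TPP7 without control 4 or RDS 1, and SODA without control 2, RDS 2 or RDS 4; the lowest of these by size was −1.001 for CIN4 and the highest −1.176 for OPR7. With all 16 libraries the log2 fold change was −0.008 for NAC5, 0.117 for LOC_Os03g13200 and 0.224 for LOC_Os07g01370. BZIP50 stood at −0.003 under filterByExpr and −0.085 with no filter, GS1;3 at −0.014 with no filter, and NOL at 0.007 with the 7 Swarna libraries alone. With 1 library left out, log2 fold changes ranged from −0.035 to 0.305 for ZEP, from −0.248 to 0.082 for ABA8OX3, from −0.159 to 0.102 for BZIP50, from −0.115 to 0.093 for NOL, from −0.401 to 0.279 for GS1;3, from −0.277 to 0.13 for SODCP, from −0.183 to 0.274 for RBOHB, from −1.166 to 0.338 for CKX2, from −1.523 to 0.064 for LOC_Os03g13200 and from −2.2 to 0.298 for LOC_Os07g01370.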
